A study of Mus musculus with 6 samples.

Results

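The sarcomeric myosin heavy chains described here are 6 genes, Myh1, Myh2, Myh3, Myh4, Myh7 and Myh8. They were taken as a list of gene names, and each was measured by summing the estimated counts of its annotated transcripts, which gives 6 of the 25308 genes with a count in this study. RNA was sequenced from C2C12 cells, a mouse myoblast line that leaves the cell cycle in low serum and fuses into multinucleated myotubes. There were 6 libraries, 2 biological replicates each of myotubes and of reserve cells after 7 days in low-serum medium, and of myoblasts harvested near confluency. Reserve cells are the mononucleated cells of a differentiated culture that did not fuse, and the groups of Day 7 were parted by mild trypsinization. The labels name no transgene and no drug in any group. All groups come from this 1 line, so replicates are separate samples of the line and p-values measure the spread between such samples.

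Myosin heavy chain is the motor of the thick filament, with a head that binds actin and splits ATP and a long coiled tail that packs into the filament. Mammals carry a separate gene for each fibre type and stage. Myh3 encodes the embryonic and Myh8 the perinatal chain, which skeletal muscle makes while it forms and again while it regenerates. Myh2, Myh1 and Myh4 encode the IIa, IIx and IIb chains of adult fast fibres, and Myh7 encodes the slow chain, which the heart also uses. The type of chain is a main determinant of how fast a fibre shortens.

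Library totals ran from 15658875 to 20055078 estimated counts. The 10 myotube marker genes (among them Acta1, Ckm and Mymk) summed to 25414 and 25574 CPM (counts per effective library size, with TMM factors from edgeR) in myotubes, 8095 to 8269 CPM in reserve cells and 2095 to 2162 CPM in myoblasts, and none of them was at 0 in a group. The myoblast sum came mainly from Des (mean 1380 CPM) and Chrna1 (mean 512 CPM). The 10 myoblast and proliferation markers summed to 389 to 394 CPM in myotubes, 942 to 978 CPM in reserve cells and 2225 to 2233 CPM in myoblasts. Of these, Myod1 alone had 233 and 236 CPM in myotubes, against 169 and 190 CPM in reserve cells, and 213 and 201 CPM in myoblasts. The other 9 genes summed to 157 to 158 CPM in myotubes, against 773 to 788 CPM in reserve cells, and 2012 to 2032 CPM in myoblasts. The 10 reserve cell markers include Pax7, Cd34 and Notch3, and Calcr was at 0 in all 6 libraries. They summed to 438 to 443 CPM in myotubes, 886 to 888 CPM in reserve cells and 786 to 796 CPM in myoblasts. Of 9 tested, edgeR called 7 lower and 1 (Spry1) higher in myotubes than in reserve cells (28.4% and 27.2% over all genes). In reserve cells against myoblasts, 4 were called higher and 2 (Myf5 and Hey1) lower (24.3% and 21.8% over all genes). The other 3, Pax7, Notch3 and Sdc4, were not called there. Of 13 markers of fat, endothelial, blood, glial, bone and cartilage cells, 6 (Adipoq, Plin1, Ptprc, Adgre1, Sox10 and Acan) were at 0 in all libraries, and 5 others stayed at or under 2.57 CPM. Runx2, a factor of bone cells, averaged 19.5 ± 5.01 CPM in myotubes, against 80.4 ± 8.24 CPM in reserve cells and 57.5 ± 2.72 CPM in myoblasts (SD, n = 2 each), and edgeR called it lower in myotubes than in either group and higher in reserve cells than in myoblasts. Sox9, a factor of cartilage cells, had 60.2 and 59.8 CPM in myotubes, against 59.4 and 63.1 CPM in reserve cells, and 86.0 and 87.0 CPM in myoblasts, and edgeR called it lower in myotubes and in reserve cells than in myoblasts. In such bulk libraries, fewer cells of a type and less RNA per cell cannot be told apart, and the part of myotube material carried into the reserve cell libraries in the values below was not tested.

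Of the 6 genes, 5 lie head to tail on the plus strand of chromosome 11 in mm10 (GRCm38), in the order Myh3 (ENSMUSG00000020908.14, from 67078300 to 67102291), Myh2 (ENSMUSG00000033196.17, from 67171027 to 67197517), Myh1 (ENSMUSG00000056328.14, from 67200052 to 67224575), Myh4 (ENSMUSG00000057003.12, from 67238029 to 67260446) and Myh8 (ENSMUSG00000055775.16, from 67277124 to 67308634). Myh7 (ENSMUSG00000053093.16) lies apart, on the minus strand of chromosome 14 from 54970684 to 54994626. The leading transcripts have 39 to 41 exons, and the proteins are 1935 (Myh7) to 1942 residues long (Myh1 and Myh2).

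Since counts of near-identical paralogs depend on how reads are divided among them, the coding sequences were compared first. Their identity ran from 76.7% (Myh3 and Myh7) to 91.0% (Myh1 and Myh2), and the longest run shared without a difference, 268 bases, was that of Myh1 and Myh2. The 60-base coding window in which the 6 genes are most alike differed by 2.78% on average over all pairs. It is shown because 4 of the genes are identical there, and capitals mark bases that differ from Myh1. Myh1 (exon 27, chr11:67215191-67215250) has the same 60 bases there as Myh2, Myh4 and Myh8.
Myh1, Myh2, Myh4 and Myh8: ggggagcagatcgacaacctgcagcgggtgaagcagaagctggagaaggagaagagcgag
Myh3 (exon 27, chr11:67094747-67094806): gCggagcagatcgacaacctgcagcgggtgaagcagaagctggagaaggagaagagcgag
Myh7 (exon 28, chr14:54979230-54979289, minus strand): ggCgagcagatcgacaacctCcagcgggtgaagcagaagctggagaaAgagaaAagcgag
The window in which they are least alike differed by 37.9% on average. It shows where the genes can be told apart, again with capitals at differences from Myh1.
Myh1 (exon 16, chr11:67209099-67209158): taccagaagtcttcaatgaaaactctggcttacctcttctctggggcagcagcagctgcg
Myh2 (exon 16, chr11:67181281-67181340): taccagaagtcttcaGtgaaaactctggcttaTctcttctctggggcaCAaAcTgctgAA
Myh4 (exon 15, chr11:67248692-67248751): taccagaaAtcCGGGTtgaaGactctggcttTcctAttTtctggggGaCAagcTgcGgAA
Myh8 (exon 16, chr11:67289773-67289832): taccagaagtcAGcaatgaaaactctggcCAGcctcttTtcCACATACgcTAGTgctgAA
Myh3 (exon 16, chr11:67089064-67089123): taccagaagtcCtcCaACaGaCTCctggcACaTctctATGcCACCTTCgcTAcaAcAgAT
Myh7 (exon 17, chr14:54987225-54987284, minus strand): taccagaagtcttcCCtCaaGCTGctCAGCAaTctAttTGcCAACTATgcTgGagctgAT
In this window Myh2 differed from Myh1 at 8 bases, Myh4 at 17, Myh8 at 19, and Myh3 and Myh7 at 27 each.

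Most of each transcript was unique at the read length of 150 bases. Windows of that length found without a difference in another myosin heavy chain gene made up 2.49% of the leading transcript of Myh1, 2.06% of Myh2, 0.306% of Myh3, 0.511% of Myh4, 5.43% of Myh7 and 1.60% of Myh8. At 75 bases the shares were 16.6% for Myh1, 16.3% for Myh2, 1.86% for Myh3, 9.68% for Myh4, 15.3% for Myh7 and 12.9% for Myh8. Myh7 shared such windows with Myh6 alone, the alpha cardiac chain, and not with another of the 6 genes. How StringTie divided reads that fit several genes is not given in the sources used here. The lower values of Myh2, Myh4 and Myh8 beside Myh1 are therefore uncertain by an amount that was not tested.

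All 6 genes were far higher in myotubes and in reserve cells than in myoblasts, and all 6 were higher in myotubes than in reserve cells. Their summed level was 17523 and 17995 CPM in the myotubes, 4171 and 4300 CPM in the reserve cells, and 60.04 and 51.7 CPM in the myoblasts. They made up 1.57% and 1.60% of all counts in myotubes, 0.430% and 0.442% in reserve cells, and 0.00651% and 0.00559% in myoblasts. The mean summed level in myotubes was 318 times that in myoblasts and 4.19 times that in reserve cells, and the mean in reserve cells was 75.8 times that in myoblasts. For none of the 6 genes did the libraries of any pair of groups overlap. The share of all genes without overlap was not computed, so this stands as a description.

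Among the developmental chains, Myh3 had 5101 and 5298 CPM in myotubes, against 1661 and 1702 CPM in reserve cells, and 40.4 and 33.7 CPM in myoblasts. It was the gene of the 6 with the most counts in myoblasts, 693 and 730. Myh8 had 940 and 963 CPM in myotubes, against 233 and 237 CPM in reserve cells, and 1.93 and 3.18 CPM in myoblasts. In myoblasts its replicates stood furthest apart among the genes counted in both, at 33 and 69 counts.

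Of the adult fast chains, Myh1 was the most abundant of all 6 genes at Day 7, with 9620 and 9859 CPM in myotubes, against 1869 and 1936 CPM in reserve cells, and 12.02 and 9.68 CPM in myoblasts. Myh4 had 781 and 778 CPM in myotubes, against 114 and 119 CPM in reserve cells, and 0.292 and 0 CPM in myoblasts. The myoblast value rests on 5 counts in 1 library and 0 in the other. Myh2 had 451 and 475 CPM in myotubes, against 98.2 and 103.7 CPM in reserve cells, and 0.759 and 0.553 CPM in myoblasts, which are 13 and 12 counts. The slow chain gene Myh7 had 630 and 622 CPM in myotubes, against 194 and 203 CPM in reserve cells, and 4.61 and 4.66 CPM in myoblasts. In myotubes and reserve cells the replicates of each gene differed by at most 5.41% of their mean, and in myoblasts, apart from Myh4, by at most 49.2%.

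**Figure D1:**
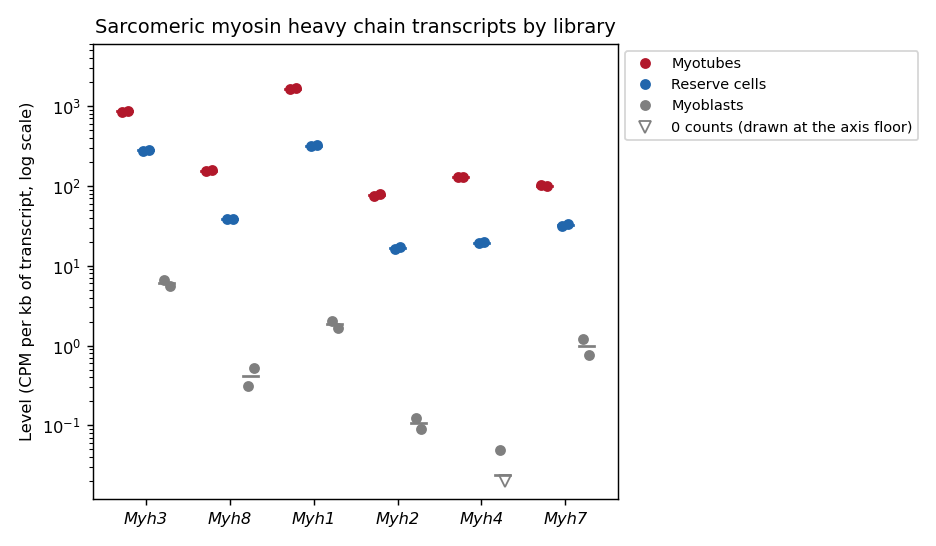
Level of each gene in every library, in CPM per kb of transcript on a log scale, with a point for each library and a line at the mean of the 2 libraries of a group. Myotubes lie above reserve cells and reserve cells above myoblasts for all 6 genes, and the open triangle is the myoblast library without a count of Myh4.

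Levels of different genes are set side by side only per kb of transcript. In myotubes the order was Myh1 (1646 ± 38.0 CPM per kb, SD, n = 2 here and below), Myh3 (862 ± 23.1), Myh8 (156 ± 3.09), Myh4 (130.2 ± 0.33), Myh7 (101.0 ± 0.966) and Myh2 (76.8 ± 2.86), and the libraries of neighbours in this order did not overlap. In reserve cells Myh1 (320.2 ± 7.09 CPM per kb) and Myh3 (279 ± 4.78) again led, Myh8 followed at 38.5 ± 0.538, and Myh7 (32.5 ± 0.958) stood above Myh4 (19.5 ± 0.573) and Myh2 (16.7 ± 0.686), also without overlap of neighbours. In myoblasts Myh3 led at 6.14 ± 0.794 CPM per kb, ahead of Myh1 (1.86 ± 0.284), Myh7 (0.991 ± 0.327), Myh8 (0.415 ± 0.144), Myh2 (0.108 ± 0.0239) and Myh4 (0.0242 ± 0.0343), again without overlap. The level and spread of Myh7 in myoblasts also depend on few counts on short transcripts, given with the shares below. Myh4 thus stood above Myh7 in myotubes and below it in reserve cells.

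The comparison of myotubes with myoblasts asks how far the contractile genes differ across differentiation. With edgeR's quasi-likelihood test, fitted on 15467 genes in all 6 libraries with Benjamini-Hochberg adjustment, 6 of 6 genes were called higher in myotubes at an adjusted p under 0.05, where 32.6% of all genes tested were called higher. The fitted log2 fold changes were 9.82 (SE 0.0873) for Myh1, 9.47 (SE 0.106) for Myh2, 7.14 (SE 0.0842) for Myh3, 7.07 (SE 0.0611) for Myh7 and 8.50 (SE 0.132) for Myh8. Myh4 had the largest, 12.49 (SE 0.236), with 14 of the 15467 genes above it. The adjusted p-values ran from 3.2e-11 (Myh7) to 1.6e-09 (Myh4), and the median log2 fold change was 8.99 for the 6 genes and 0.00 over all genes tested.

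The fold of Myh4 against myoblasts is poorly fixed because so few counts lie under it. From the 5 counts, the mean of the myotube libraries was 6053 times that of the myoblast libraries, with a 95% interval of 2594 to 18641 that covers counting error only. The fitted log2 fold change was 11.34 without myoblast replicate 2 and 16.80 without myoblast replicate 1. In this last case no count was left, and a floor of 3 counts in the remaining library gave a bound of 5635-fold. That bound holds against myoblast replicate 2 alone, and the interval from both libraries reaches below it. For reserve cells the same values were 905 times (interval 388 to 2787) and a log2 fold change of 8.60 and of 14.07. The bound against myoblast replicate 2 alone was 842-fold, again above the lower end of the interval.

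In reserve cells, which did not fuse, the 6 genes were also far above their level in myoblasts. All 6 were called higher, where 24.3% of all genes tested were. The log2 fold changes were 7.46 (SE 0.0809) for Myh1, 7.28 (SE 0.108) for Myh2, 5.51 (SE 0.0788) for Myh3, 9.74 (SE 0.253) for Myh4, 5.42 (SE 0.0592) for Myh7 and 6.49 (SE 0.128) for Myh8. The edgeR adjusted p-values ran from 2.5e-10 to 2.4e-08, and the median was 6.88, against 0.01 over all genes tested. In fold, Myh7 was lowest at 42.8 (95% interval 38.9 to 47.0) and Myh3 next at 45.5 (40.1 to 51.6), and these intervals overlap. Beside them, the 10 myotube markers had a median log2 fold change of 4.01 in reserve cells against myoblasts, with 10 of 10 called higher.

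Myotubes were then compared with the reserve cells of the same day, which share the medium and the time but not the fusion. All 6 genes were called higher in myotubes by edgeR, where 27.2% of all genes tested were. The fold was 6.69 (95% interval 5.56 to 8.05) for Myh4, 5.12 (4.65 to 5.63) for Myh1, 4.59 (4.15 to 5.07) for Myh2, 4.04 (3.52 to 4.65) for Myh8, 3.15 (2.94 to 3.38) for Myh7 and 3.09 (2.79 to 3.43) for Myh3. As log2 these are 2.74 (SE 0.116), 2.36 (SE 0.0601), 2.20 (SE 0.0626), 2.02 (SE 0.0874), 1.66 (SE 0.0437) and 1.63 (SE 0.0646), with adjusted p-values of 2.6e-08 to 3.9e-07. The median was 2.11, against −0.01 over all genes tested. The 3 adult fast genes had the largest folds of the 6, the slow gene Myh7 and the embryonic gene Myh3 the smallest, and the intervals of Myh1, Myh2 and Myh4 did not overlap those of Myh7 and Myh3. The perinatal gene Myh8 lay between. Its interval overlapped that of Myh2 and also did not overlap those of Myh7 and Myh3. The 10 myotube markers had a median log2 difference of 1.61 in the same comparison, with 10 of 10 called higher. The 3 comparisons share their libraries, so their fold changes are not independent of each other.

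**Figure D2:**
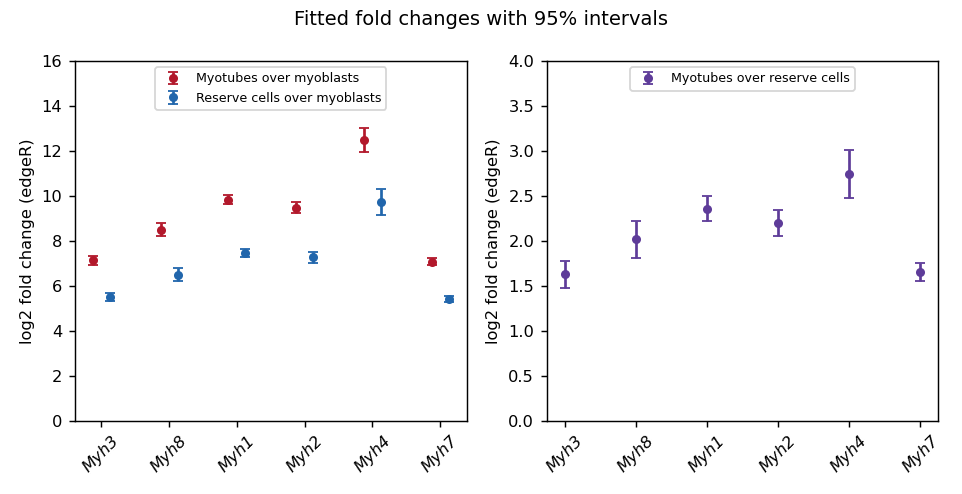
Fitted log2 fold changes (edgeR) of the 6 genes, myotubes over myoblasts and reserve cells over myoblasts on the left and myotubes over reserve cells on the right, with bars for the 95% interval. All values lie above 0, and on the right Myh4 stands highest at 2.74 and Myh3 and Myh7 lowest at 1.63 and 1.66.

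Since the genes did not differ by the same factor, the makeup of the myosin heavy chain transcripts differed between the groups. Per kb of transcript, Myh1 took 55.3% and 55.4% of the summed level in myotubes, 45.3% and 45.4% in reserve cells, and 19.7% and 19.3% in myoblasts. Myh3 took 28.9% and 29.1% in myotubes, 39.6% and 39.4% in reserve cells, and 64.0% and 64.8% in myoblasts. The ratio of Myh3 to Myh1 (mean ± SD, n = 2) was 0.524 ± 0.00198 in myotubes, against 0.871 ± 0.00435 in reserve cells and 3.31 ± 0.0785 in myoblasts. Embryonic transcripts thus outnumbered IIx transcripts only in the myoblast libraries.

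The smaller shares differed by less. Myh4 took 4.46% and 4.30% in myotubes, 2.74% and 2.77% in reserve cells, and 0.463% and 0% in myoblasts. Myh7 took 3.48% and 3.32% in myotubes, 4.58% and 4.63% in reserve cells, and 11.7% and 8.82% in myoblasts. In myoblast replicate 1, 4 of the 79 Myh7 counts were on Myh7-206 (595 bases) and 1 on Myh7-208 (451 bases). Division by such short lengths raised its level per kb and its share there. Before that division Myh7 had 4.61 and 4.66 CPM in the myoblast libraries. The myoblast shares were not recomputed with other lengths. Myh8 took 5.26% and 5.24% in myotubes and 5.48% and 5.43% in reserve cells, and Myh2 took 2.56% and 2.61% in myotubes and 2.33% and 2.40% in reserve cells. In myoblasts the share of Myh8 was 2.99% and 6.01%, and that of Myh2 was 1.19% and 1.06%.

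Summed by type, the adult fast genes Myh1, Myh2 and Myh4 held 62.3% ± 0.0171 (SD, n = 2 here and in the next sentence) of the level in myotubes, against 50.5% ± 0.137 in reserve cells and 20.8% ± 0.707 in myoblasts. The developmental genes Myh3 and Myh8 held 34.3% ± 0.125 in myotubes, against 44.9% ± 0.177 in reserve cells and 68.9% ± 2.72 in myoblasts. The shares of myotubes and reserve cells did not overlap for any of the 6 genes, and the largest differences were those of Myh1 (10.04 percentage points higher in myotubes) and Myh3 (−10.5 percentage points, myotubes minus reserve cells). A two-sided exact permutation test over 2 libraries against 2 gave p = 0.33 for each gene, the smallest value this design allows, so the shares stand as a description.

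**Figure D3:**
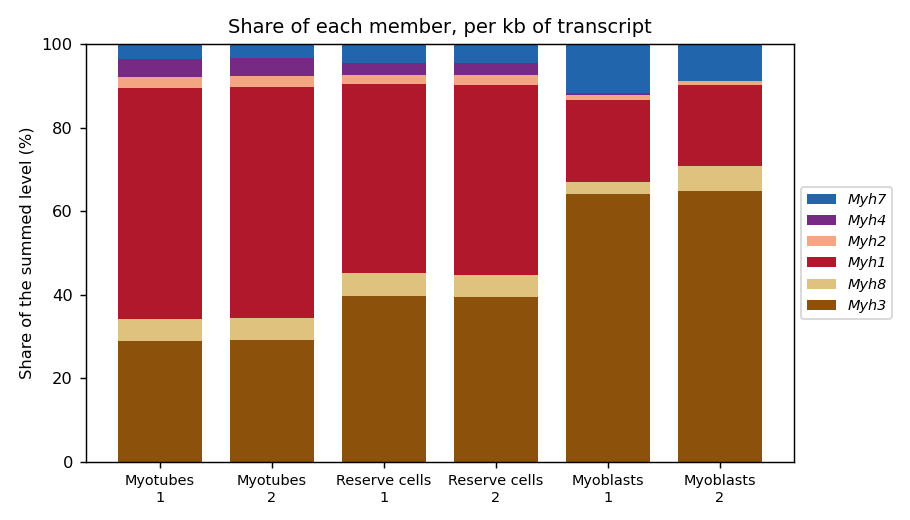
Share of each gene in the summed level of the 6 genes (percent of CPM per kb), 1 bar for each library. Myh1 is the largest part of the myotube bars (55.3% and 55.4%), Myh3 that of the myoblast bars (64.0% and 64.8%), and the reserve cell bars lie between.

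The counts were deposited by transcript, and the division among transcripts of 1 gene was less stable than the gene totals. Myh3 and Myh8 were read almost wholly from 1 transcript each, Myh3-202 with at least 99.9% and Myh8-201 with at least 99.3% of the counts of their gene in every library. Counts of Myh1 were split between Myh1-203 and Myh1-201, and Myh1-201 held 22.5% and 78.0% in the myotube replicates and 29.2% and 19.9% in the reserve cell replicates. These transcripts have the same coding sequence, all 5938 bases of Myh1-201 lie within Myh1-203, and 143 noncoding bases are found in Myh1-203 only. The replicates of the myotubes thus disagreed on the leading transcript of Myh1 while their gene totals differed by 2.45% of their mean.

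Myh7 and Myh2 were read from different transcripts in myotubes and reserve cells. Of the counts of Myh7, Myh7-204 held 96.8% and 89.2% in myotubes, 0% and 1.74% in reserve cells, and 82.3% and 0% in myoblasts. Myh7-201 held 3.14% and 10.4% in myotubes, 99.9% and 98.0% in reserve cells, and 10.1% and 100% in myoblasts. They code for the same protein and differ by 178 noncoding bases in Myh7-204 and 83 in Myh7-201. Of the counts of Myh2, Myh2-201 held 86.9% and 79.8% in myotubes and 34.5% and 0% in reserve cells, and in myoblasts all counts were given to Myh2-203, which is longer by 65 noncoding bases.

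Fitted by transcript over 35501 transcripts with edgeR, 10 of the 14 tested transcripts of these genes were called higher in myotubes than in myoblasts, where 10.3% of all transcripts were, 8 of 14 in reserve cells against myoblasts (background 4.54%), and 4 of 14 in myotubes against reserve cells (background 4.80%). None was called lower. Between myotubes and reserve cells, Myh7-204 had an edgeR log2 fold change of 8.37 (95% interval 1.03 to 15.71, adjusted p = 0.154) and Myh7-201 one of −2.21 (−5.17 to 0.76, adjusted p = 0.312). Neither transcript passed the threshold on its own, and the difference between the 2 was not tested.

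**Figure D4:**
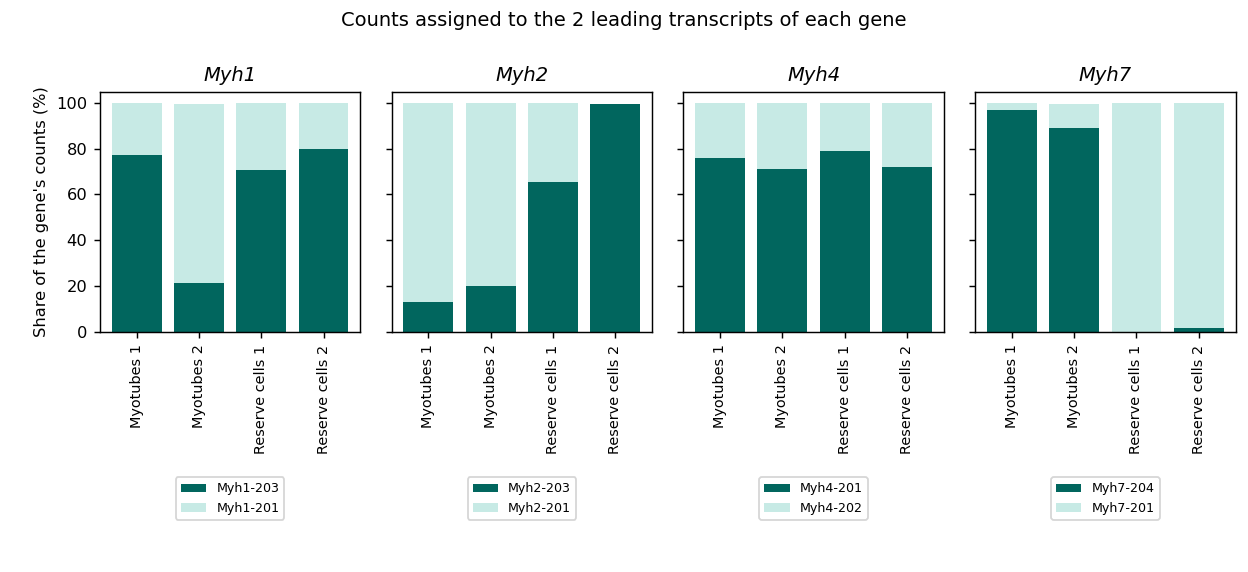
Share of the counts of Myh1, Myh2, Myh4 and Myh7 assigned to the 2 leading transcripts of each gene, 1 bar for each library of myotubes and reserve cells. The myotube replicates differ for Myh1 (Myh1-201 at 22.5% and 78.0%), and for Myh7 the leading transcript is Myh7-204 in myotubes and Myh7-201 in reserve cells.

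Noncoding genes lie between and over these genes, and the mean levels of those with a count followed the same order of groups. 9430073C21Rik, annotated antisense to the end of Myh2 (chr11:67195680-67199234), had 16.9 and 17.2 CPM in myotubes, against 2.77 and 3.01 CPM in reserve cells, and 0 counts in both myoblast libraries. From a floor of 3 counts over the group it was at least 221-fold higher in myotubes and at least 37.4-fold higher in reserve cells than in myoblasts. With 3 counts in 1 myoblast library as the floor, these bounds were 123-fold and 20.9-fold without myoblast replicate 1, and 97.4-fold and 16.5-fold without myoblast replicate 2. Myhas, annotated antisense over the 3′ part of Myh1 and the space up to Myh4 (chr11:67211256-67237573), had 65.6 and 59.7 CPM in myotubes, against 12.2 and 17.0 CPM in reserve cells, and 0 and 0.184 CPM in myoblasts. 2310065F04Rik, a lincRNA between Myh3 and Myh2 (chr11:67112461-67120080), had 7.61 and 8.96 CPM in myotubes, against 1.46 and 0.777 CPM in reserve cells, and 0 in myoblasts, so that it was at least 107-fold higher in myotubes than in myoblasts, or 59.9-fold without myoblast replicate 1 and 47.3-fold without myoblast replicate 2.

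In the comparison of myotubes with reserve cells these RNAs had log2 fold changes of 2.56 (SE 0.23) for 9430073C21Rik, 2.10 (SE 0.21) for Myhas and 2.88 (SE 0.42) for 2310065F04Rik, and all were called by edgeR (adjusted p = 6.5e-05, 5.2e-05 and 0.00083). Over Myh7, the antisense RNA Mhrt had 1.56 and 1.40 CPM in myotubes, against 0.202 and 0.725 CPM in reserve cells, and 1 count in the myoblast libraries, and it did not pass the threshold between myotubes and reserve cells (log2 fold change 1.66, edgeR adjusted p = 0.0976). Gm31251, also antisense to Myh7, had 3.98 and 1.63 CPM in myotubes, against 0.656 and 0.829 CPM in reserve cells, and was called higher in myotubes (log2 fold change 1.90, edgeR adjusted p = 0.0241). The microRNA gene Mir6923, within Myh3, had 2 and 4 counts in myotubes, against 2 counts in each reserve cell library and 0 in myoblasts, while Gm29015 and Mir208b, both over Myh7, had no count in any library. It is not stated whether the counting used strand, so reads of a gene and of its antisense partner cannot be told apart, and of the noncoding genes named here the lincRNA 2310065F04Rik alone overlaps no myosin gene.

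**Figure D5:**
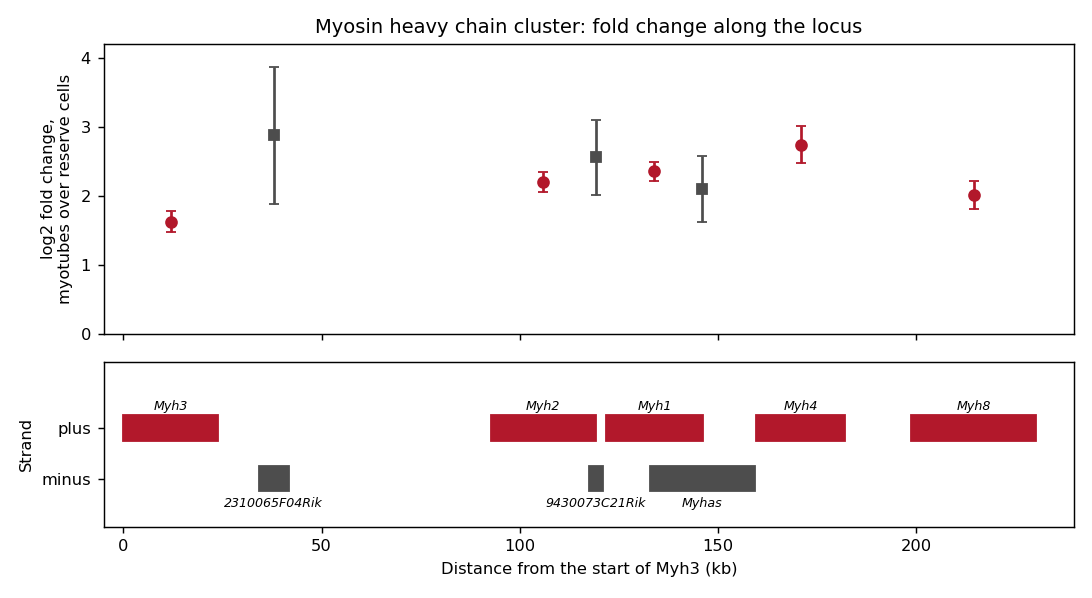
Fold change along the cluster of 5 genes, with the log2 fold change of myotubes over reserve cells and its 95% interval (edgeR) above, and the extent and strand of each gene below, by distance in kb from the start of Myh3. The myosin genes (circles) run from 1.63 at Myh3 to 2.74 at Myh4, and the noncoding genes (squares) from 2.10 to 2.88.

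Because the genes moved together, the 150 bases before each start site were searched for motifs of muscle promoters. An E-box, which MyoD and myogenin bind, was searched as CANNTG, and the TATA box of basal promoters as TATAAA. The MCAT motif of TEAD factors was searched as CATTCC. The MEF3 motif was searched as TCAGGTT, and the MEF2 and CArG motifs are given by name, all on both strands. Of all 32851 mouse promoters in RefSeq, the same 150 bases held an E-box in 47.7%, a TATA box in 7.57%, MCAT in 7.59%, MEF3 in 2.03%, MEF2 in 1.67% and CArG in 0.916%. The sequences are RefSeq's (GRCm38.p6), on the strand of the gene, and capitals mark the matches.
Myh3 (chr11:67078150-67078299): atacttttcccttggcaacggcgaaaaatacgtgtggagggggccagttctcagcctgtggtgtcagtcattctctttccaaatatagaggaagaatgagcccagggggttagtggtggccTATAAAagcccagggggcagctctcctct
Myh8 (chr11:67276974-67277123): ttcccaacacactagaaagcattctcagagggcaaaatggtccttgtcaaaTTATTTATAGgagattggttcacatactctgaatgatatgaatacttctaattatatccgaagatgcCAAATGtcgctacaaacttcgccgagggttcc
Myh2 (chr11:67170877-67171026): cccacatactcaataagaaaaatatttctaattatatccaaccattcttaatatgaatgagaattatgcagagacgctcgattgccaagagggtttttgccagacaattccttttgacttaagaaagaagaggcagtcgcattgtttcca
Myh4 (chr11:67237662-67237811): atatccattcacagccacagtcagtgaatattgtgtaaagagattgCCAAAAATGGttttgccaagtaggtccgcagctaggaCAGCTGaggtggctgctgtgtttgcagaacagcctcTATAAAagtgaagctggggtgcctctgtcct
Myh7 (chr14:54994627-54994776, minus strand): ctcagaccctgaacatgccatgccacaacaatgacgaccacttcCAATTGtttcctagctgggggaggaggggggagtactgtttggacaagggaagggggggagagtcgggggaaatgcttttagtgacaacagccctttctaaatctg

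A TATA box ended 24 bases before the start in Myh3, 26 in Myh4 and 27 in Myh1. The window of Myh1 is not printed because its last 50 bases lie in an exon of Myh1-203 in GENCODE, and it also held an MCAT match. Myh4 further held an E-box and a CArG match, Myh8 held an E-box and a MEF2 match whose letters overlap its TATA match, Myh7 held an E-box, and Myh2 held none of the 6 motifs. The windows of the 6 genes thus had no motif in common. RefSeq places the start of Myh4 at 67237812, ahead of the start of 67238029 in GENCODE. A match is a run of letters and says nothing of binding in these cells.

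Other myosin heavy chains of the striated type were scarcer and followed the same order. Myh6 had 81.1 and 80.3 CPM in myotubes, against 24.9 and 26.3 CPM in reserve cells, and 0.642 and 0.231 CPM in myoblasts. Its counts were 0.129 of those of Myh7 in either myotube library, against 0.128 and 0.129 in reserve cells and 0.139 and 0.0495 in myoblasts, and Myh7 and Myh6 share the windows described above. Myh7b, a slow-type chain, had 47.8 and 45.4 CPM in myotubes, against 9.33 and 8.70 CPM in reserve cells, and 0.525 and 0.323 CPM in myoblasts. Myh13, the extraocular chain, had 2.42 and 1.57 CPM in myotubes, against 0.504 and 0.466 CPM in reserve cells, and 0 in myoblasts, so that it was at least 25.8-fold higher in myotubes than in myoblasts (14.4-fold without myoblast replicate 1 and 11.4-fold without myoblast replicate 2). Myh15 had no count in any library. Of these 4 genes, 3 were tested, and edgeR called 3 of 3 higher in each of the 3 comparisons. Over all genes tested, 32.6% were called higher in myotubes and 24.3% in reserve cells against myoblasts, and 27.2% in myotubes against reserve cells.

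Nonmuscle chains ran the other way, with 1 exception. Over all genes tested, 32.7% were called lower in myotubes and 21.8% in reserve cells against myoblasts, and 28.4% in myotubes against reserve cells. Myh9, the nonmuscle IIA chain of the cell cortex, had 923 and 909 CPM in myotubes, against 2012 and 2088 CPM in reserve cells, and 2549 and 2525 CPM in myoblasts. It fell by 1.47 on the log2 scale in myotubes and by 0.31 in reserve cells against myoblasts, and by 1.16 in myotubes against reserve cells (edgeR adjusted p = 2.0e-09, 4.9e-05 and 2.4e-08). Myh10, the IIB chain, had 65.6 and 71.5 CPM in myotubes, against 172.7 and 164 CPM in reserve cells, and 324 and 335 CPM in myoblasts, with log2 fold changes of −2.26, −0.97 and −1.30 in the same order of comparisons. Myh14, the IIC chain, was higher in myotubes (18.2 and 21.8 CPM) than in reserve cells (3.58 and 3.16 CPM) and myoblasts (1.23 and 1.20 CPM), with log2 fold changes of 4.04, 1.47 and 2.57, and edgeR called it higher in each comparison. The smooth muscle chain Myh11 stayed at or under 0.427 CPM and was not tested.

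The partners of the heavy chain in the thick filament rose with it. Of the myosin light chains, 8 of 10 tested genes were called higher and 2 lower in myotubes against myoblasts, and 7 were called higher and 2 lower in myotubes against reserve cells. Mylpf, the fast regulatory light chain, had 6401 and 6015 CPM in myotubes, against 1379 and 1318 CPM in reserve cells, and 33.5 and 35.2 CPM in myoblasts. Myl4, the embryonic and atrial essential light chain, had 2968 and 2765 CPM in myotubes, against 725 and 679 CPM in reserve cells, and 4.84 and 3.87 CPM in myoblasts. The genes called lower were Myl6 and Myl9 in both comparisons. Among those called higher in myotubes against myoblasts, Myl12a averaged 383 CPM in myotubes and 210 CPM in myoblasts, and Myl12b 558 and 439 CPM. Myl12b was also called higher in myotubes than in reserve cells, while Myl12a was not called there. Over all genes tested, 32.6% were called higher and 32.7% lower in myotubes against myoblasts, and 27.2% and 28.4% in myotubes against reserve cells. Of 9 tested thick filament partners, 9 were called higher in each comparison, with a median log2 fold change of 6.57 in myotubes and 4.61 in reserve cells against myoblasts and 1.89 in myotubes against reserve cells. In reserve cells against myoblasts, 24.3% of all genes tested were called higher.

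Genes that fold, bind or degrade myosin were mostly higher. Among 12 chaperones, assembly factors and ubiquitin ligases, edgeR called 9 higher and 3 lower in myotubes against myoblasts, 8 higher and 3 lower in reserve cells against myoblasts, and 9 higher and 3 lower in myotubes against reserve cells. Over all genes, 32.6%, 24.3% and 27.2% were called higher and 32.7%, 21.8% and 28.4% lower in the same order of comparisons. Unc45b, the muscle chaperone that folds the myosin head, had 399 and 402 CPM in myotubes, against 96.8 and 101.7 CPM in reserve cells, and 4.08 and 2.63 CPM in myoblasts. Trim63, which encodes the ubiquitin ligase MuRF1 that marks heavy chains for breakdown, had 154 and 149.5 CPM in myotubes, against 37.8 and 33.9 CPM in reserve cells, and 1.05 and 0.922 CPM in myoblasts. Their log2 fold changes between myotubes and reserve cells, 2.01 for Unc45b and 2.08 for Trim63, lie near the median of the heavy chains. The median of the 12 genes in that comparison was lower, at 0.95, and Hsp90aa1, Fbxo32 and Unc45a were called lower in myotubes.

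Partner genes of both fibre types were also higher in myotubes. Of 9 fast-type genes (such as Tnnt3, Atp2a1 and Mylpf), 9 were called higher in myotubes than in reserve cells, with a median log2 fold change of 2.29. Of 9 slow-type genes (such as Tnni1, Atp2a2 and Tnnt1), 9 were called higher, with a median of 1.95. Against myoblasts the medians in myotubes were 7.68 for the fast-type and 7.50 for the slow-type genes, with 9 of 9 called higher in each list. In reserve cells they were 5.29 with 9 of 9 higher, and 5.44 with 8 higher and Tpm3 lower. Over all genes tested, 27.2% were called higher in myotubes against reserve cells and 32.6% in myotubes against myoblasts. In reserve cells against myoblasts, 24.3% were called higher and 21.8% lower. The lists share genes with those above, such as Tnnt3 with the myotube markers and Mylpf with the light chains. The difference between the lists was not tested.

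Among 23 regulators of fibre type, 22 were tested, and edgeR called 11 higher and 8 lower in myotubes against myoblasts, 13 higher and 4 lower in reserve cells against myoblasts, and 8 higher and 10 lower in myotubes against reserve cells. Over all genes tested, 32.6%, 24.3% and 27.2% were called higher and 32.7%, 21.8% and 28.4% lower in these comparisons. The median log2 fold change of the list was 0.48, 0.32 and 0.27, with genes called in both directions in all 3. The 8 lower of 22 in myotubes against myoblasts lie near the share over all genes. The 11 and 13 higher of 22 against myoblasts lie above it, as do both the 8 higher and the 10 lower of 22 in myotubes against reserve cells. In reserve cells against myoblasts the list leaned toward higher. Mef2c, a transcription factor of muscle genes, had 1173 and 1210 CPM in myotubes, against 237 and 248 CPM in reserve cells, and 1.05 and 0.968 CPM in myoblasts, with log2 fold changes of 10.20, 7.90 and 2.30 in the same order. Tbx15, a factor of fast glycolytic fibres in mice, had 599 and 644 CPM in myotubes, against 136.0 and 136.5 CPM in reserve cells, and 31.6 and 31.9 CPM in myoblasts. Tead4, which binds the MCAT motif, had log2 fold changes of 3.34 in myotubes and 1.97 in reserve cells against myoblasts and 1.37 in myotubes against reserve cells (edgeR adjusted p = 5.2e-08, 2.9e-06 and 1.3e-05).

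The genes most like the summed heavy chains were found by the Euclidean distance between centred log2 CPM over the 6 libraries, among 10504 genes whose mean reached 10 CPM in some group. The 5 nearest were C130080G10Rik (0.155), 3425401B19Rik (0.327), Tnnt3 (0.365), Tnnc1 (0.372) and Mybph (0.392). C130080G10Rik had 34.0 and 35.8 CPM in myotubes, against 8.02 and 8.24 CPM in reserve cells, and no count in myoblasts, so that its place, and that of 3425401B19Rik with no count either, also depends on the prior count of 2 in the log. Among the heavy chains themselves, Myh3 and Myh7 were nearest (0.239), although they lie on different chromosomes, then Myh1 and Myh2 (0.570). Myh4 and Myh7 were furthest apart (5.22). With 5 and 0 counts of Myh4 in the myoblast libraries, the distances of Myh4 also depend on the prior count. Beyond the list, the nearest gene was Fxyd6 for Myh1 (0.33), Myl4 for Myh2 (0.312) and Hspb7 for Myh8 (0.508), and since Fxyd6 had no count in myoblasts, its distance also depends on that prior count. Myh3 had none nearer than Myh7, and for Myh4 the nearest, at 1.42, was a transcript that was paired with no gene.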

How the data were processed

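The authors aligned paired-end reads to mm10 with HISAT2, filtered them with SAMtools, quantified transcripts with StringTie and deposited an estimated count per transcript for each of 6 libraries, as whole numbers. The sources used here give neither the versions of these programs nor the annotation release or strand setting. The deposited series table was not used, since each of its values is 2 times the estimated count or that less 1.

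Transcripts were paired with GENCODE M21 (141374 of 142604; the other 1230 kept their own identifiers) and summed to genes. A quasi-likelihood fit of all 6 libraries in edgeR 4.0.16 (R 4.3.3) compared the groups, after filterByExpr (minimum count 10) and TMM scaling. P-values were adjusted by Benjamini-Hochberg over 15467 genes, and the threshold was 0.05. TMM factors were 0.899 and 0.889 (myotubes), 1.03 (both reserve cell libraries), and 1.09 and 1.08 (myoblasts). Mitochondrially encoded genes took 5.30% and 5.37% of counts in myotubes, 2.36% in both reserve cell libraries, and 1.89% and 1.90% in myoblasts. Replicates differed beyond sampling noise: chi-square divided by its degrees of freedom was 8.02 for myotubes, 7.74 for reserve cells and 6.23 for myoblasts. Levels per kb divide each transcript's CPM by its length. The procedure was tested on simulated data.

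The heavy chains and the lists of other genes were chosen with earlier results of these data known. Named are all heavy chains, the noncoding genes between or over them, of each other list at most 4 genes of lowest adjusted p per comparison, and genes of nearest pattern, of which 1 is not reported here. Light chains called lower, Myl12a, Myl12b, Tpm3, and some markers, chaperones and other list examples were named after their values were seen. The design text of the series gives 7 days, while the methods give another duration for mature cultures.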

Additional observations from a re-analysis of the deposited data

How the results depend on the processing

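Each fold change of the 6 genes was recomputed under 15 alternatives (DESeq2 1.42.0, RLE factors, library totals as scaling, all genes unfiltered, only genes of 10 CPM in 2 libraries, the 4 libraries compared alone, the replicate block, mitochondrial genes left out, sarcomeric genes left out of the scaling, and each library left out). All 270 values kept their direction and stayed past the threshold, with a largest adjusted p of 1.8e-05 (edgeR or DESeq2), and 6 of 6 genes stayed called in each comparison, the replicate block included. Leaving out a library of a compared group leaves 1 in that group, which is then assumed to vary like the other groups, and the largest adjusted p comes from such a fit, without reserve cell replicate 2. The replicate numbers do not pair the libraries: the deviations of same-numbered libraries were correlated with 0.0022 (myotubes and myoblasts), 0.0404 (reserve cells and myoblasts) and −0.0321 (myotubes and reserve cells). Of the 6 genes, only Myh4 had a fold against myoblasts that moved by over 1.5 times, as given above. Library totals in place of TMM moved the median over all genes to −0.27 in myotubes against myoblasts, −0.06 in reserve cells against myoblasts and −0.21 in myotubes against reserve cells, and lowered all 18 values by about as much.

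With transcripts in place of genes, 10 of 14 were called higher in myotubes against myoblasts and 8 of 14 in reserve cells against myoblasts. In myotubes against reserve cells only 4 of 14 were. Over all transcripts tested, 10.3%, 4.54% and 4.80% were called higher in the same order of comparisons. Without division by length, Myh1 took 54.8% in myotubes and 44.9% in reserve cells, and Myh3 took 29.3% in myotubes and 39.7% in reserve cells. With the length of the longest coding transcript, Myh1 took 54.8% in myotubes and 44.8% in reserve cells, and Myh3 took 29.5% in myotubes and 40.0% in reserve cells. Depth limits the myoblast values of Myh2 (13 and 12 counts) and Myh4 (5 and 0 counts).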
